A study of Pinus pinaster with 12 samples.

Results

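Of the 13226 m6A peaks in the deposited lists for water-irrigated and ammonium-irrigated pine roots, 275 lay on a transcript that carried a peak in both lists, but at a site where the other list had no peak. These unmatched peaks were chosen by position: they shared not even 1 base with any peak of the other list on the same transcript. The water list gave 160 of them, 2.41% of its 6637 peaks, and the ammonium list 115, 1.75% of its 6589. They lay on 237 of the 4966 transcripts present in both lists. The same 237 transcripts also carried 281 water peaks and 285 ammonium peaks that did overlap, called matched peaks here.

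The plants were maritime pine (Pinus pinaster) seedlings aged 1 month from the Segura-Alcaraz provenance. After 3 days of acclimation they received 80 mL of water or 80 mL of 3 mM NH4Cl, and roots were taken 24 h later in an experiment run 3 independent times. Polyadenylated RNA was fragmented and sequenced either directly (input) or after precipitation with an m6A antibody (IP), giving 4 groups of 3 libraries: input water, input ammonium, IP water and IP ammonium. The labels do not say how many seedlings were pooled in a sample, and whole roots mix cell types, so fewer cells of a type and less RNA per cell cannot be told apart in the levels below.

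N6-methyladenosine (m6A) is a methyl mark on adenosines inside messenger RNA. In Arabidopsis and other eukaryotes it is written by a methyltransferase complex, removed by demethylases of the ALKBH family and bound by proteins with a YTH domain, and it bears on the stability and translation of the marked RNA. Antibody precipitation of fragmented RNA locates the mark only to the scale of a fragment, as a stretch where IP reads exceed input reads. A transcript can carry several such stretches. The files name transcripts by ID alone, so no gene name or role is given here, and no sequence was used.

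A peak has no replicates, since there is a single list per treatment, and the lists were not remade with a library left out. The 12 libraries held 57945305 to 81534388 counts each. Replicate 1 of the water IP stood closest to the inputs, with a mean correlation of log2 levels with the input libraries of 0.723 across 148273 transcripts, where the remaining IP libraries had 0.513 to 0.628 (across transcripts, which do not replicate each other independently). The 3 water IP libraries also differed more among themselves: the chi-square per degree of freedom of their pairs was 33.1 to 51.4, against 13.2 to 22.1 for ammonium IP pairs. The part of these differences in the lists was not tested.

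The unmatched peaks were mostly additions to a transcript whose main site was listed in both treatments. Of the 237 transcripts, 227 had a matched peak as well, and the other 10 had none. Unmatched peaks came from the water list alone on 130 transcripts, from the ammonium list alone on 90 and from both on 17. Most transcripts had a single one: 137 of the 147 transcripts with unmatched water peaks and 100 of the 107 with unmatched ammonium peaks. Transcripts with several peaks in either list numbered 613 of the 4966, and 227 of these (37.0%) held an unmatched peak. A transcript with 1 peak in each list can hold one only if its peaks miss each other, which happened in 10 of 4353.

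Unmatched peaks were lower and narrower than the matched peaks beside them. Height here is the authors' fold enrichment of IP over input for a peak, a value compared only within its own list. In the water list the median fold was 3.64 for unmatched peaks (95% order-statistic interval 3.05 to 4.20, range 1.2 to 19.0) and 10.7 (9.67 to 12.7) for matched peaks of the same transcripts. In the ammonium list it was 3.67 (3.08 to 4.40, range 1.33 to 55.2) against 11.5 (9.67 to 13.0). Peaks made the lists by this same enrichment, so the values describe the members and no test was made of them.

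Within a transcript the order was the same. Of the 150 unmatched water peaks that shared their transcript with a matched peak of the same list, 136 had a lower fold than the highest matched peak, and 128 were lower than all of them. The median ratio of the highest matched fold to the unmatched fold was 3.96. In the ammonium list 87 of 105 were lower than the highest matched peak, 17 were higher and 1 was equal, with a median ratio of 3.22. The exceptions show that an unmatched peak was not always the minor one of its transcript.

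Set in the whole list, the median unmatched peak stood at percentile 11.2 of the folds of the water list and 11.1 of the ammonium list. Only 8 unmatched peaks of each list had a fold above the median of that list. A fold of at least 10 was reached by 11 of 160 unmatched water peaks (6.88%) and by 152 of 281 matched ones (54.1%), and in the ammonium list by 11 of 115 (9.57%) and 158 of 285 (55.4%). Peaks of shared transcripts that had several peaks in a list and no unmatched one had median folds of 9.0 with water (743 peaks) and 9.33 with ammonium (601 peaks). Peaks on transcripts present in 1 list only had medians of 4.64 with water and 5.00 with ammonium, closer to the unmatched peaks.

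Most unmatched peaks were about 100 bases wide, the narrowest kind in the lists. A wide peak overlaps another more readily, so the rule itself favoured narrow peaks, and the widths are a description. The median width was 101 bases with water and 100 bases with ammonium, against 200 bases for the matched peaks of the same transcripts in each list. Of the unmatched water peaks 99 (61.9%) were at most 110 bases wide and 12 (7.5%) exceeded 210 bases, where 50 (17.8%) and 133 (47.3%) of the matched peaks did. In the ammonium list 75 (65.2%) were at most 110 bases wide and 5 (4.35%) exceeded 210 bases, against 51 (17.9%) and 138 (48.4%) of the matched peaks.

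**Figure D1:**
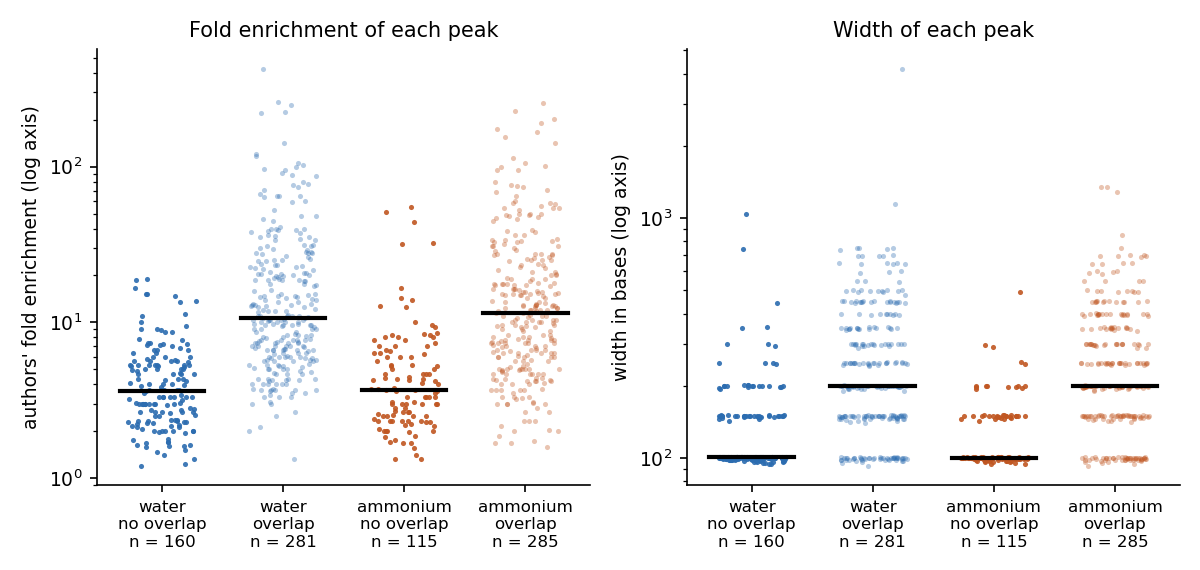
Fold enrichment (left) and width in bases (right) of every peak on the 237 transcripts, both on log axes, by list and by whether the peak overlaps a peak of the other list; each point is a peak and each bar a median. The unmatched peaks of both lists centre near a fold of 3.64 and 3.67 and a width of 101 and 100 bases, below the matched peaks in both panels, with widths falling in bands about 50 bases apart.

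Most unmatched peaks lay within 500 bases of a peak of the other treatment, usually a matched one. That nearest peak was itself unmatched for 16 of the 160 water peaks (10.0%) and 14 of the 115 ammonium peaks (12.2%). Most gaps are therefore distances to a site listed in both treatments. The median gap to the nearest peak of the other list was 197.5 bases for water and 147 bases for ammonium peaks. A gap under 200 bases was found for 87 of the 160 water peaks (54.4%) and 87 of the 115 ammonium peaks (75.7%). At the far end, 28 water peaks (17.5%) and 12 ammonium peaks (10.4%) were at least 500 bases away, and 12 and 3 were at least 1000 bases away. Distant sites were thus a minority in both lists.

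Gaps came in steps. Gaps lay within 5 bases of a multiple of 50 for 113 of 160 water peaks and 94 of 115 ammonium peaks. The shortest gap was 47 bases in both lists, reached by 4 water and 3 ammonium peaks. Just across the threshold, 14 water and 13 ammonium peaks counted as matched through an overlap of exactly 1 base, and the lists held none with 2 to 10 bases. The median fold of unmatched peaks with a gap under 50 bases was 4.34 with water and 4.33 with ammonium. For the peaks matched by 1 base it was 3.88 and 2.40, values as low as those of unmatched peaks.

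**Figure D2:**
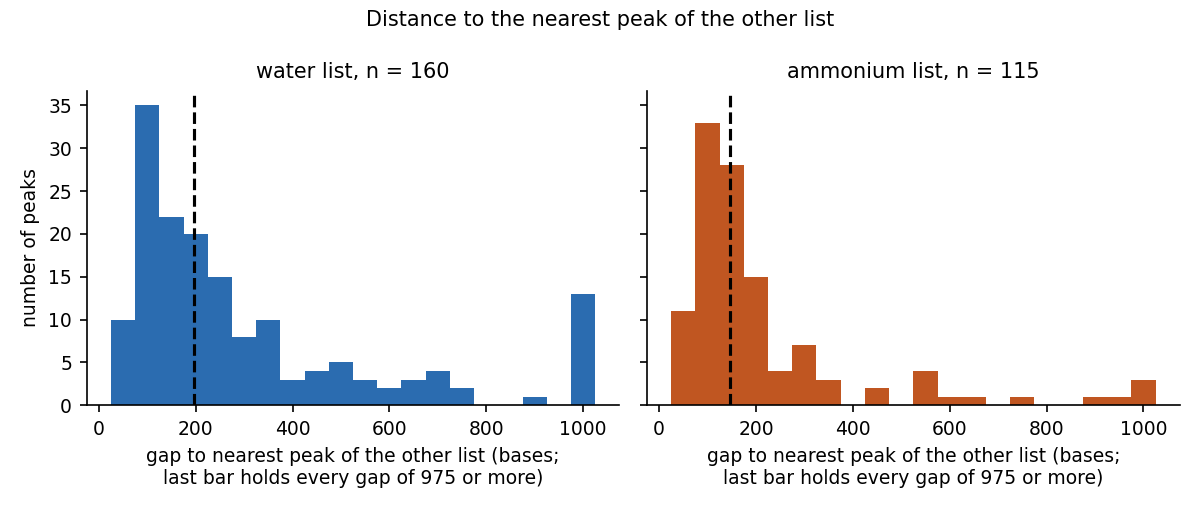
Number of unmatched peaks (vertical axis) by gap in bases to the nearest peak of the other list (horizontal axis, bars of 50 bases), for the water list (160 peaks) and the ammonium list (115 peaks); the dashed line is the median, 197.5 and 147 bases. Most peaks of both lists stand close to a peak of the other treatment, usually a matched one, and the last bar gathers the distant ones.

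There was no clear preference for one side of the transcript. Of the unmatched water peaks 78 lay on the 5′ side of the nearest ammonium peak and 82 on the 3′ side. Of the unmatched ammonium peaks 61 lay on the 5′ side of the nearest water peak and 54 on the 3′ side. Relative to the matched peaks of the same list on the transcript, water peaks lay 5′ of all of these in 69 cases. They lay 3′ of all in 72 and between matched peaks in 9. The ammonium peaks lay 5′ of all matched peaks of their list in 52 cases, 3′ of all in 43, and between them in 10. On most transcripts a single matched peak left no other place than outside it. Of the 26 water peaks with several matched peaks of their list on the transcript 9 lay between these, and of the 24 such ammonium peaks 10 did. Peaks were not placed in coding or untranslated parts here.

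The highest unmatched peaks of the water list lay near the transcript start in 3 of 4 cases. On pp_44317 the water list had a peak at positions 51 to 151 with a fold of 19.0, beside a matched peak at 250 to 400 with 4.33. This transcript had 1, 2 and 9 reads in the water inputs, so the fold rests on very few input reads. On pp_4122 positions 50 to 148 had a fold of 18.8, and the matched water peak at 245 to 538 had 39.6. The ammonium peak of that transcript began at position 196, only 47 bases on, which makes it also 1 of the closest pairs of the rule.

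On pp_211939 the unmatched water peak at 151 to 251 had a fold of 16.5, above the 5.72 of the matched peak at 450 to 700. The IP level of pp_211939 was 49.0, 43.3 and 55.0 CPM (read counts scaled to the library total) with water and 56.2, 63.7 and 58.8 with ammonium, and in the inputs 86.5, 84.6 and 86.4 CPM stood against 96.8, 101.7 and 107.2. All ammonium libraries were above all water libraries in both, although the unmatched peak is a water one; neither difference was called (adjusted p = 0.464 in the IP and 0.196 in the input, edgeR).

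On pp_123583 a peak at 1594 to 1694 had a fold of 15.3, and it stood 1194 bases from the ammonium peak at 2889 to 3337. The matched water peak there, at 2839 to 3337, had 27.3. The IP levels of pp_123583 scattered widely, at 55.6, 260.5 and 115.6 CPM in the water libraries and 67.9, 148.5 and 26.0 in the ammonium libraries. The groups overlapped, with replicate 2 the highest of both.

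The highest unmatched peaks of the ammonium list differed in their place beside the matched ones. On pp_170203 the peak at 50 to 248 had a fold of 55.2, above the matched peak at 446 to 644 with 27.3. On pp_153401 the peak at 97 to 192 had 50.8, against 6.19 for the matched peak at 288 to 479. On pp_219649 the peak at 1076 to 1173 had 43.8, below the 227 of the matched peak at 685 to 880. In the first and second of these the unmatched site was the higher 1 of its transcript, and in the last it was the minor 1.

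On pp_138203 the ammonium peak at 843 to 942 had a fold of 32.3 and the matched peak at 1041 to 1140 had 9.33. The IP level of pp_138203 was 13.6, 17.7 and 23.7 CPM with water and 22.4, 22.4 and 17.7 with ammonium, and its input level was 8.08, 9.29 and 9.95 against 10.6, 9.24 and 10.1. The groups overlapped in IP and input alike. For pp_170203 the IP level was 21.4, 29.8 and 24.0 CPM with water and 29.1, 29.8 and 30.0 with ammonium, again overlapping. For pp_153401 it was 16.5, 20.7 and 21.8 CPM with water and 23.5, 23.2 and 22.2 with ammonium, without overlap, and was not called (adjusted p = 0.485, edgeR).

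The most distant sites lay on transcripts with a higher matched peak elsewhere. The water list gave pp_64348 4 unmatched peaks, at 298 to 398, 1290 to 1488, 2430 to 2579 and 3520 to 3619, more than any other transcript. Their folds were 1.61, 2.81, 2.34 and 2.64, and the gaps to the only ammonium peak, at 5255 to 5354, were 4856, 3766, 2675 and 1635 bases. The matched water peak at 5206 to 5404 had a fold of 121, so all 4 were minor sites. The IP level of pp_64348 was 172.2, 66.9 and 136.1 CPM with water and 76.0, 56.3 and 65.6 with ammonium. Replicates 1 and 3 of the water IP were high and replicate 2 lay among the ammonium libraries.

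In the ammonium list the most distant unmatched peaks were on pp_39848, pp_99753 and pp_208756. On pp_39848 a peak at 3797 to 3897 with a fold of 8.0 stood 2446 bases from the nearest water peak. On pp_99753 a peak at 1290 to 1389 with a fold of 2.17 stood 1784 bases away, and on pp_208756 one at 51 to 201 with a fold of 2.70 stood 1547 bases away. Their matched ammonium peaks had folds of 25.1, 16.3 and 76.2. All 3 were small next to the site that both treatments shared.

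Other transcripts carried a series of unmatched peaks. On pp_81805 the ammonium list had 3, at 200 to 300, 499 to 599 and 1745 to 1845, with folds of 2.33, 3.00 and 2.33. On pp_112835 the water list had 3, at 100 to 249, 647 to 795 and 895 to 1093, with folds of 2.67, 3.00 and 3.33. Both transcripts were nearly absent from the inputs, with at most 4 reads in any input library, but had 210 to 586 and 177 to 378 reads per IP library.

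A few unmatched peaks were broad regions. The water list had a peak of 1037 bases at 1185 to 2221 of pp_237290, with a fold of 14.7, 97 bases past the ammonium peak at 741 to 1087. The IP level of pp_237290 was 545.6, 339.9 and 199.0 CPM with water and 176.3, 165.1 and 148.9 with ammonium, so every water IP library was above every ammonium one. Its input level overlapped, at 105.8, 129.3 and 100.5 CPM with water and 105.5, 112.7 and 109.6 with ammonium. The fitted IP change was a log2 fold change of -0.90 (SE 0.28), which missed the threshold (adjusted p = 0.464, edgeR). The 3 water values alone span 199.0 to 545.6 CPM.

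Also wide was a water peak of 740 bases at 395 to 1134 of pp_141823, with a fold of 5.27 beside a matched peak with 262. In the ammonium list, the widest were 490 bases at 1714 to 2203 of pp_145417 with a fold of 32.0, and 297 bases at 99 to 395 of pp_73062 with 13.9. In both ammonium cases the fold was higher than that of the matched peak of the same list, 27.1 on pp_145417 and 13.6 on pp_73062. The IP level of pp_145417 was 66.7, 81.5 and 78.5 CPM with water and 92.4, 128.0 and 109.7 with ammonium. Its input level was 30.1, 28.7 and 28.8 against 36.3, 37.1 and 34.3, so both kinds of library were higher with ammonium without overlap. Neither change was called (adjusted p = 0.464 in the IP and 0.174 in the input, edgeR).

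On 10 transcripts the lists had a peak each and the peaks missed each other. In every case the gap was short, from 47 to 147 bases, and the water peak was the 5′ one in 6 of the 10. On pp_196937 the ammonium peak at 49 to 194 had a fold of 7.00 and the water peak at 339 to 484 had 6.67. On pp_160234 the water peak at 1134 to 1232 had 3.33 and the ammonium peak at 1380 to 1626 had 5.33. On pp_101041 the water peak at 241 to 337 and the ammonium peak at 433 to 577 both had 3.33, and on pp_19358 those at 48 to 142 and 236 to 329 had 3.00 and 3.33.

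These 4 transcripts had few reads. No input library held a read of pp_196937, while the IP libraries held 187, 287 and 115 reads with water and 150, 189 and 200 with ammonium. The lists nevertheless give finite folds for it, so a fold is not a plain quotient of these transcript counts. The IP libraries held 7 to 63 reads of pp_19358, 58 to 159 of pp_101041 and 120 to 164 of pp_160234, with at most 14 reads in any input library for each. On all 10 transcripts the listed sites lie close to each other.

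**Figure D3:**
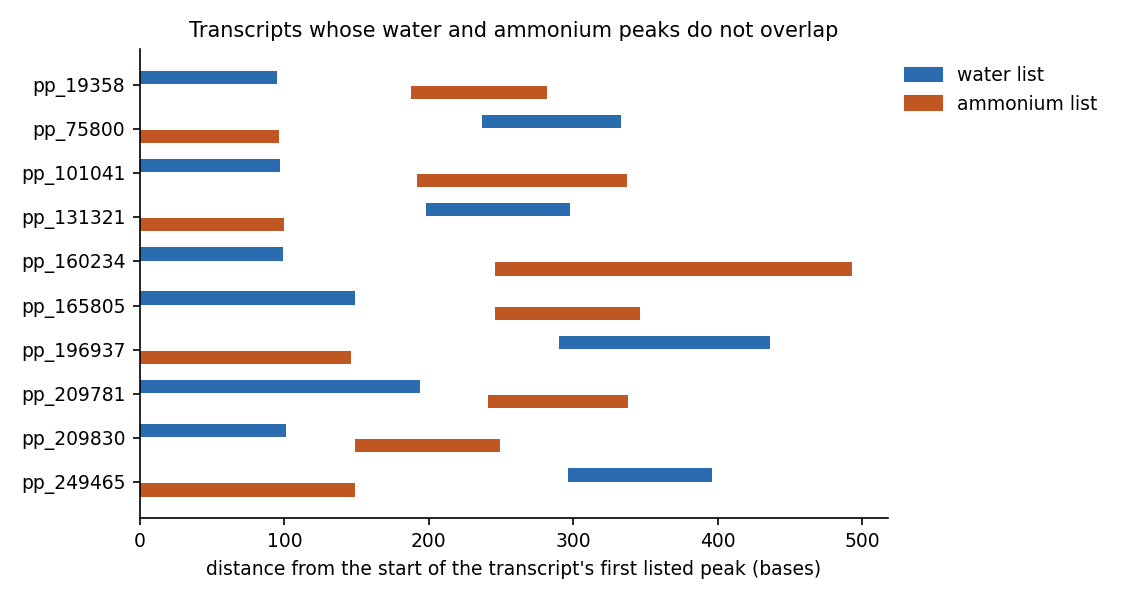
Positions of the listed peaks on the 10 transcripts whose water (blue) and ammonium (orange) peaks never overlap, drawn to scale in bases from the start of the transcript's first listed peak. The gaps between the pairs are 47 to 147 bases, and the order of the treatments along the transcript is mixed.

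The fold values were coarse where input was scarce. The expression filter of the input comparison (minimum count 10) was passed by 179 of the 237 transcripts (75.5%), against 4113 of the 4729 other transcripts in both lists (87.0%), and 15 of the 237 had no read in any input library. Among transcripts with unmatched peaks in both lists only 7 of 17 passed. On transcripts below the filter, 35 of the 36 unmatched water folds under 10 were multiples of 1/3 to within 0.005, and 34 of 35 in the ammonium list. On transcripts that passed, 39 of 113 and 23 of 69 were. For low-input transcripts the listed fold thus moved in coarse steps.

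The listed p-values often did not separate a transcript's sites either. Of the 150 unmatched water peaks with another peak of the list on the transcript, 90 (60%) had exactly the p-value of another of its peaks, and 81 of 105 ammonium peaks (77.1%) did. Matched peaks of the same transcripts did so about as often, in 65.0% and 76.0% of cases. An example is pp_77250, where the ammonium peaks at 97 to 242, 338 to 483 and 628 to 724 all had p = 6.2e-05 in the authors' list, with folds of 9.67, 5.00 and 3.00. The last, only 47 bases from a water peak, is the unmatched one. In such cases the p-value does not tell the sites of the transcript apart. Likewise on pp_153952 the unmatched ammonium peak at 581 to 871 and the matched one at 98 to 436 shared a listed p-value.

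The matched peaks of these transcripts differed in extent in both directions. Of 259 pairs of matched peaks that overlapped only each other, 117 (45.2%) had the same start and end in both lists, 67 were wider with water and 70 wider with ammonium. On the other transcripts in both lists 2547 of 4852 pairs (52.5%) had the same start and end, 836 were wider with water and 1390 with ammonium. On transcripts with unmatched water peaks only, 42 of 147 pairs were wider with water and 35 with ammonium. On those with unmatched ammonium peaks only, 22 of 100 were wider with water and 30 with ammonium. These differences were described and not tested, since the same calls chose the members.

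The transcripts as wholes were then compared between treatments in the input, to see whether sites listed in 1 treatment sat on transcripts whose abundance differed. With edgeR's quasi-likelihood test none of the 179 transcripts that could be tested was called at an adjusted p under 0.05, where 0.424% of all 114887 transcripts were (0.383% higher and 0.0409% lower with ammonium). An unadjusted p under 0.05 was reached by 21 of the 179 (11.7%), against 10.4% of all. Of these 15 were higher and 6 lower with ammonium, where 6.02% and 4.33% of all transcripts were. DESeq2 called 2 members, pp_79598 and pp_222152, but it also called 2843 of all transcripts, where edgeR called 487. The input groups did not overlap for 32 of the 179 (17.9%), against 15.8% of all. Both shares lie near the background. For transcripts with unmatched water peaks only, 15 of 104 were higher with ammonium without overlap (14.4%, against 6.92% of all) and 8 were lower (7.69%, against 8.90%). With unmatched ammonium peaks only, 5 of 68 were higher (7.35%) and 4 lower (5.88%), and of the other transcripts in both lists 9.36% were higher and 6.15% lower. The difference between the classes was not tested.

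The median log2 fold change in the input was 0.02 for the 104 tested transcripts with unmatched water peaks only. For the 68 with unmatched ammonium peaks only it was 0.08, beside 0.04 for the 4113 other tested transcripts in both lists and 0.00 for all transcripts. Omission of 1 library at a time moved the first from -0.01 to 0.08 (lowest without replicate 1 and highest without replicate 2 of the water inputs). It moved the second from 0.02 to 0.10, so both shifts exceeded the difference between the first and the second. The second stayed the higher in each omission, though only at 0.018 against 0.014 without replicate 2 of the ammonium inputs. The median SE of the members was 0.13, on the log2 scale. Only 3 of the 179 had a fitted change of 2-fold or more, and pp_44317, with its few reads, was among them.

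The lowest p in the input belonged to pp_79598, with an unmatched ammonium peak at 448 to 548 (fold 2.50). In the inputs it stood at 6.26, 3.69 and 6.75 CPM with water and 2.30, 2.44 and 3.30 with ammonium. The groups did not overlap, and the log2 fold change was -0.996 (SE 0.22, adjusted p = 0.107, edgeR). Its IP level overlapped, at 30.2, 22.1 and 11.0 CPM with water and 17.4, 7.69 and 16.9 with ammonium. DESeq2 called it in the input (adjusted p = 0.0044), as did edgeR without the expression filter (adjusted p = 0.00049). With 1 library omitted it was not called (adjusted p from 0.0743 to 0.501, edgeR), so the call depended on the method and the libraries.

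In the higher direction, pp_162553, with an unmatched water peak at 49 to 144 (fold 3.89), had 15.1, 13.6 and 15.8 CPM in the water inputs and 17.5, 19.2 and 18.3 in the ammonium inputs. The groups did not overlap, and the log2 fold change was 0.36 (SE 0.09, adjusted p = 0.174, edgeR). Its IP levels overlapped, from 18.0 to 29.3 CPM with water and from 19.9 to 30.0 with ammonium.

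In the IP all 237 transcripts could be tested, and none was called with edgeR for ammonium against water, where 0% of all 99846 transcripts were. An unadjusted p under 0.05 was reached by 37 of the 237 (15.6%, against 10.4% of all), 29 of them higher and 8 lower, where 5.25% of all were higher and 5.2% lower. Of the other transcripts in both lists 23.8% reached it, 1049 higher and 77 lower, so the members' share lay between theirs and that of all. DESeq2 called 1, pp_78826, and 284 of all transcripts. Without the expression filter edgeR called 11, pp_78826, pp_145417, pp_222153 and pp_237290 among them, and 1863 of all transcripts. The groups did not overlap for 43 (18.1%), against 15.8% of all, with 23 higher (9.70%, against 4.45% of all) and 20 lower (8.44%, against 11.3%) with ammonium. Among the 130 transcripts with unmatched water peaks only, 11 were higher and 13 lower, and among the 90 with unmatched ammonium peaks only, 10 were higher and 5 lower. The other transcripts in both lists were higher without overlap in 623 cases (13.2%) and lower in 254 (5.37%).

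The median log2 fold change in the IP was 0.10 for transcripts with unmatched water peaks only and 0.25 for those with unmatched ammonium peaks only, against 0.26 for the 4729 other transcripts in both lists and -0.23 for all transcripts. Without replicate 1 of the water IP these medians were 0.04 and 0.11 for the unmatched classes and -0.16 for all. They were 0.14, 0.33 and -0.07 without replicate 2 and 0.07, 0.17 and -0.38 without replicate 3. Without an ammonium IP library they were 0.09 to 0.14, 0.17 to 0.33 and -0.26 to -0.24. The IP libraries took part in the choice of the peaks, so this order is a description. As a share of reads, transcripts with unmatched water peaks only took 0.659% ± 0.0239 of the water IP and 0.623% ± 0.0152 of the ammonium IP (SD, n = 3). Those with unmatched ammonium peaks only took 0.331% ± 0.0420 and 0.357% ± 0.00783, a difference within the spread of the water libraries.

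**Figure D4:**
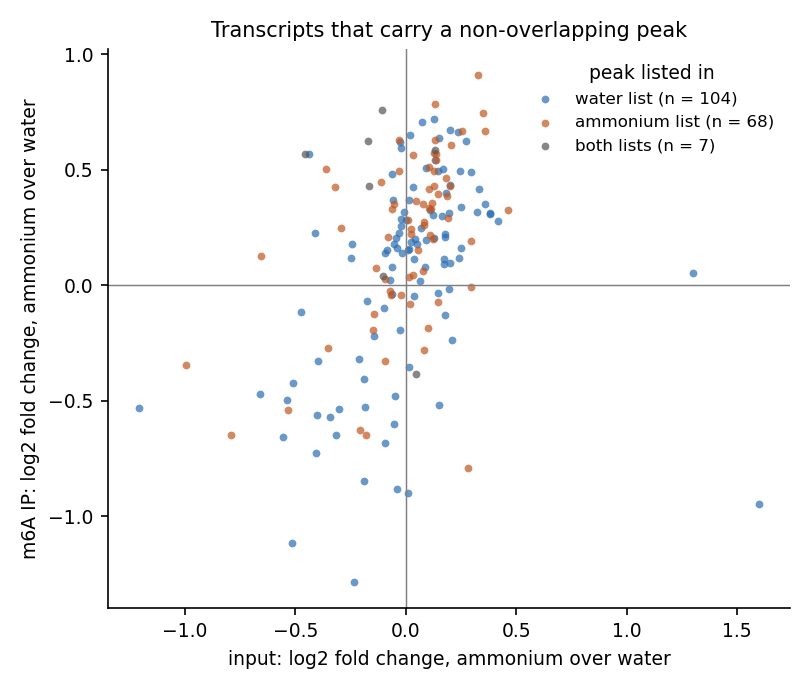
Log2 fold change of ammonium over water in the input (horizontal axis) and in the m6A IP (vertical axis) for the 179 transcripts with unmatched peaks that were tested in both; each point is a transcript, coloured by the list of its unmatched peak. Both colours are spread over the same region around 0 in the input, and no point was called in either comparison with edgeR.

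The transcript pp_78826 had the lowest p among the members in the IP. Its unmatched ammonium peak at 448 to 548 had a fold of 2.22, beside a matched ammonium peak at 100 to 349 with 19.3. The IP level was 23.7, 24.9 and 24.3 CPM with water and 39.2, 39.7 and 39.4 with ammonium, groups that were tight and well apart. The log2 fold change was 0.91 (SE 0.17, adjusted p = 0.464, edgeR). The input had 54.5, 47.2 and 58.1 CPM with water and 58.5, 70.2 and 64.3 with ammonium, just without overlap (log2 fold change 0.33, SE 0.10, adjusted p = 0.245, edgeR). As a whole this transcript was less abundant in the IP than in the input in both treatments, although it carried peaks.

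In the lower direction, pp_222153, with an unmatched water peak at 2780 to 2879 (fold 7.25), had 33.5, 26.4 and 14.4 CPM in the water IP and 8.30, 9.63 and 11.3 in the ammonium IP. All ammonium values lay below all water values, and the log2 fold change was -1.11 (SE 0.27, adjusted p = 0.464, edgeR). The next ID, pp_222152, carried an unmatched water peak at 3276 to 3425 (fold 5.00). In the inputs it stood at 0.687, 0.993 and 1.202 CPM with water and 0.394, 0.404 and 0.402 with ammonium, with a log2 fold change of -1.21 (SE 0.30, adjusted p = 0.153, edgeR). The adjacent IDs could share reads, so they are uncertain as separate cases. Only 2 such pairs of neighbouring IDs, at most 5 apart and in the same list, occurred among the members.

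**Figure D5:**
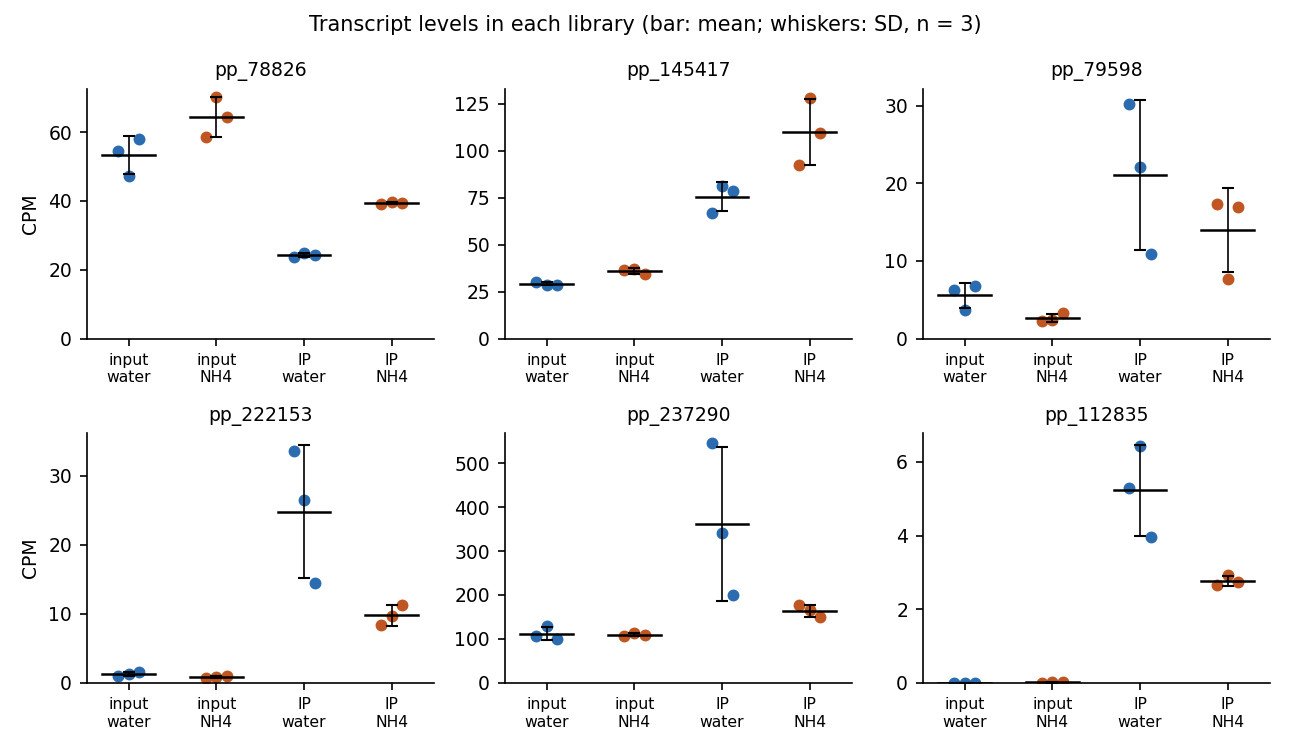
Level in CPM (vertical axis) of 6 transcripts with unmatched peaks in each of the 12 libraries; points are libraries, bars are means and whiskers are SD (n = 3). In pp_78826 and pp_145417 the ammonium IP libraries lie above the water IP libraries, and in pp_222153, pp_237290 and pp_112835 below them, while the IP groups of pp_79598 overlap.

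The change of the IP/input ratio between treatments, the measure closest to the rule, gave no call among the 237 transcripts with edgeR or DESeq2, and 0% of all 148273 transcripts were called with edgeR. Of the 237, 58 were below the filter of the input comparison, as were 616 of the 4729 other transcripts in both lists. These 58 had a median input level of 0 CPM and entered the ratio fit through their IP reads, so their ratios are poorly determined. An unadjusted p under 0.05 was reached by 37 of the 237 (15.6%, against 8.84% of all), with 31 higher and 6 lower, where 3.44% of all were higher and 5.4% lower. The other transcripts in both lists reached it in 19.6% of cases. With size factors of the DESeq2 type in the same fit 10 of the 237 reached it (4.22%, against 7.66% of all), so the members' share then lay below that of all transcripts. DESeq2 gave 18 (7.59%, against 9.89% of all), also below the share of all. Omission of replicate 1 of the water IP gave 20 (8.44%, against 6.96% of all). The median log2 change was 0.19 with unmatched water peaks only and 0.32 with unmatched ammonium peaks only, beside 0.35 for the other transcripts in both lists and -0.22 for all. The median for water-only members thus lay above that of all transcripts and below that of the other transcripts in both lists. The same libraries took part in the choice of the peaks, so this order is a description. Without replicate 1 of the water IP the medians were 0.07, 0.11 and -0.01 for water only, ammonium only and all, and with the other size factors 0.09, 0.22 and -0.27. The median SE of the members was 0.37, on the log2 scale, and counts of whole transcripts do not separate the sites within one.

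The smallest p in the higher direction belonged to pp_78826, whose log2 ratio differed by 0.69 between treatments (SE 0.19, adjusted p = 0.556, edgeR). In the lower direction it belonged to pp_112835, whose IP level was 5.29, 6.42 and 3.97 CPM with water and 2.64, 2.92 and 2.75 with ammonium. All ammonium IP values lay below all water IP values. Its inputs held 0, 0 and 0 reads with water and 0, 2 and 2 with ammonium, too few to give the ratio a fold. This transcript also carried 3 unmatched water peaks, and its only ammonium peak, at 1342 to 1540, was matched.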

How the data were processed

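Input and m6A IP libraries of pine roots were grouped by their titles. The authors' deposited table holds raw read counts per transcript ID. The submitters' processing notes name bcl2fastq and BWA, without versions. Neither the reference, the counter nor the peak caller is stated in the sources. Per the file headers, each peak of the authors' lists carries a p-value and a fold, taken as the ratio of IP to input. Listed starts count from 0, as end minus start equals the listed block size, and are printed counted from 1.

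Peaks were matched at an overlap of at least 1 base with Python 3.11.15 and pandas 2.3.3. The count tests ran in R 4.3.3 with edgeR 4.0.16 (trimmed mean of M-values scaling, default filter with minimum count 10 and minimum total 15, robust quasi-likelihood F tests, two-sided, called at a Benjamini-Hochberg adjusted p under 0.05 over all transcripts tested); the SE is the log2 fold change over the root of F. The ratio comparison is the interaction of 4 group means over 12 libraries, and the others used 6 libraries. The 3 libraries of a group set the error behind each p-value, and may share sources that the labels do not give. CPM is the count scaled to the library total. Alternatives were size factors of the DESeq2 type, no filter, DESeq2 1.42.0, a replicate block, omission of each library, and other overlap and fold rules. The steps were tried on simulated data, with large changes set in 200 transcripts with many reads, and on a few made-up peaks. The simulated scatter was equal in every library, unlike that of the real IP libraries, so those runs check the steps only. Intervals of medians are order-statistic intervals that take peaks as independent.

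Named peaks were, per list, the 4 highest folds, the 3 longest gaps, the 2 widest and the 2 shortest gaps, the 3 transcripts with most unmatched peaks, the 4 non-overlapping transcripts with the highest lower fold and, as no transcript was called, the smallest p in each direction of each of the 3 comparisons. pp_222152 was named after its values were seen. Members, lists and tests were chosen with earlier results of these data known. No sequence or gene name was used here.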

Additional observations from a re-analysis of the deposited data

How the results depend on the processing

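The numbers of unmatched peaks depended on the fold required of a peak. With peaks of a fold of at least 5 only, there were 75 unmatched water and 60 unmatched ammonium peaks on 123 transcripts, and 6 transcripts without any overlapping peak. With a fold of at least 10 there were 28 and 28 on 52 transcripts, and 2 such transcripts; dropping low peaks also removes overlaps of the peaks that remain. When an overlap had to cover 50% of the shorter peak, 23 transcripts had no matched peak in place of 10; the counts of unmatched peaks were then 184 and 132, and 150 and 104 when a gap under 50 bases also counted as a match. Under both overlap rules the median fold was 3.57 to 3.67 with water and 3.55 to 3.67 with ammonium.

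Among transcripts with unmatched peaks, DESeq2 called 2 and the fit without a filter 2 for ammonium in the input. Omission of 1 library gave 0 to 3. The 3 came without replicate 1 of the ammonium inputs, an omission that called 4921 of all transcripts. In the IP, DESeq2 called 1 and the fit without a filter 11. The other scaling, and every other omission of a library, gave 0 in the 3 comparisons, as did DESeq2 and the fit without a filter for the ratio, and the 5 transcripts named by p kept their direction in their comparisons under all of these settings. With the replicate block 0 were called among them in the input, the IP and the ratio. Over all transcripts it called 896 in the input (487 without it) and 8 in the IP (0), and DESeq2 called 2843, 284 and, for the ratio, 83 (0); without a filter 2461, 1863 and 0 were called. Deviations of same-numbered libraries correlated at 0.00637 to 0.198 in the input and 0.0112 to 0.121 in the IP. Deviations were taken from the group mean, so values above 0 in some pairs force values below 0 in others. Differently numbered libraries correlated at -0.195 to 0.0718 and at -0.135 to 0.0326, mostly below 0. Most libraries, but not every one, thus correlated best with their own number. The labels do not say that the numbers mark pairs, so the block was kept as an alternative only. Peaks could not be recomputed without a library, and scarce input reads limit the folds.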

Other observations

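A few transcripts with unmatched peaks had large fitted changes and were chosen after their values were seen. Of these, pp_171045, with an unmatched water peak, had 62.2, 20.5 and 84.2 CPM in the water IP and 21.3, 16.4 and 21.1 in the ammonium IP, so replicate 2 of the water IP lay among the ammonium libraries. The transcript pp_193744, with an unmatched ammonium peak, had 2.98, 1.46 and 2.05 CPM in the water IP and 2.54, 2.79 and 5.94 in the ammonium IP, and was not seen in any input library. The transcript pp_60816, with an unmatched water peak, had 0.123, 0.0265 and 0.116 CPM in the water inputs and 0.153, 0.242 and 0.238 in the ammonium inputs, while its IP levels overlapped between treatments. With the expression filter edgeR called none of these 3 in the input or the IP; without it pp_171045 was called in the IP.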
